A study of Homo sapiens with 2 samples.

Results

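Long non-coding RNA genes that could be measured in HepG2 cells are described here, in cells with and without induced SAMD4B. HepG2 is a human liver cancer line, and SAMD4B belongs to the Smaug family of RNA-binding proteins, named after its fly member. With earlier results of these data known, members were chosen by annotation and by level, with no use of the difference between the libraries. They are the genes that GENCODE release 29 places in a long non-coding class (lincRNA, antisense, sense_intronic, sense_overlapping, processed_transcript or bidirectional_promoter_lncRNA) and that had a mean of at least 3 TPM over both libraries. TPM is a transcript's estimated number of sequenced fragments divided by its length, set so that each library has the same total. The release holds 14971 such genes. Only 89 of them had at least 1 transcript in the table of TPM values, 7 of these 89 reached the minimum, and the other 14882 genes were not analysed here. The members therefore describe a narrow part of the long non-coding transcriptome of these cells. They cannot be taken as a sample of it, since the table's list of transcripts set which genes had a value. Most of them overlap a gene listed as protein-coding in a newer annotation, as given below. Why the other genes have no entry was not tested. Of 110 well-known long non-coding symbols in 5 lists drawn up for this report (nuclear scaffolds, snoRNA hosts, miRNA hosts, hepatocyte-enriched and signal-responsive genes), GENCODE 29 names 97 as long non-coding, and 1 of them, TUG1, had a value.

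Both libraries came from HepG2 carrying a cassette that switches on SAMD4B with doxycycline (Dox), and polyadenylated RNA was sequenced. One library was from cells given 1 µg/ml Dox for 48 h, and the other was from cells without Dox, for which the series' design also states 48 h. With 1 library in each group, replicate error is unknown and no test of the condition was made. Every difference below is between these 2 libraries, and no library of Dox-treated cells without the cassette was analysed here. The cassette's gene was higher in the library labelled with Dox, SAMD4B being at 261 TPM with Dox and 47.5 TPM without. Hepatic markers were present (AFP at 12140 TPM with Dox and 13406 TPM without, ALB at 407 and 445 TPM in the same order). Of the markers of other cell types, PTPRC, CD3E and VWF were listed at 0 in both libraries, and CDH5, DCN, COL1A1 and COL1A2 were under 1 TPM in both. PECAM1 was at 4.55 TPM with Dox and 4.57 TPM without, CD68 at 11.3 and 10.7, PDGFRB at 7.35 and 4.11, and ACTA2 at 36.7 and 61.3, and their part in the members' values was not tested. The TPM steps of weakly expressed genes put the depth at an estimated 23779662 fragments with Dox and 18258369 without. These sums cover matched transcripts of at least 600 nt and are not counted library totals.

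Long non-coding RNAs are transcripts of genes without a recognised long open reading frame. Many start beside or inside a protein-coding gene, from a shared bidirectional promoter or on the opposite strand, and some act in the nucleus on chromatin while others serve as scaffolds or precursors in the cytoplasm. TUG1, the most widely studied member here, was first found as a transcript raised by taurine in mouse retinal cells, and its RNA has been described as a partner of Polycomb repressive complexes.

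The members were 4 lincRNA genes, 2 antisense genes and 1 gene of the bidirectional promoter class. In decreasing order of mean TPM they were TUG1 (ENSG00000253352), AC005332.4 (ENSG00000274712), AL392172.1 (ENSG00000228106), AC008440.3 (ENSG00000232324), TTTY15 (ENSG00000233864), AC068768.1 (ENSG00000235423) and AL109811.3 (ENSG00000271895). TTTY15 lies on the Y chromosome. It is kept in every count and median, and its own level is not printed. The class name does not hold for all members in a newer annotation. In the RefSeq table of GRCh38.p14, TUG1 is listed as protein-coding. The spans of 6 of the 7 members overlap a gene listed as protein-coding (strand was not compared). These 6 include TUG1, which is counted through its own entry alone. Of the 7 Ensembl identifiers, 5 are missing from a current table of gene names. The 7 are therefore long non-coding by the rule of GENCODE 29, and the text below uses the names of that release. None of the 7 spans contains an annotated snoRNA or miRNA on its own strand.

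TUG1 starts head-to-head with MORC2, a chromatin ATPase that works with the HUSH silencing complex. In GENCODE 29 the outermost starts of TUG1 and MORC2 are 947 bp apart, and in RefSeq the starts are 491 bp apart. The RefSeq promoter windows (GRCh38.p14, 250 bases before the start and 50 from it) are shown because they hold the DNA between the pair, and the windows share 10 bases. TUG1 is at chr22:30969015-30969314 on the plus strand and MORC2 at chr22:30968725-30969024 on the minus strand. Capitals mark the E-box CACGTG and the box CCAAT, searched on both strands.
TUG1: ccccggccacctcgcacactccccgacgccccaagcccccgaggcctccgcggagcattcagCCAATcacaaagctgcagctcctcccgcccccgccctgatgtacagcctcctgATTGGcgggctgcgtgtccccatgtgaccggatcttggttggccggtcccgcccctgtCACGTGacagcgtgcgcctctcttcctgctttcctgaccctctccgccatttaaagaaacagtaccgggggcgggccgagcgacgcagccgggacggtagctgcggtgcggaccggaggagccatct
MORC2: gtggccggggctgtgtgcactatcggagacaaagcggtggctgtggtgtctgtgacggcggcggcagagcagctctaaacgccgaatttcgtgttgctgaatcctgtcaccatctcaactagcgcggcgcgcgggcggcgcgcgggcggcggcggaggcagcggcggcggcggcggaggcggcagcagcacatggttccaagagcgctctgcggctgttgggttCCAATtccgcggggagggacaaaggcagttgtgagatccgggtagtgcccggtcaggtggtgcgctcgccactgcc
The TUG1 window holds 1 match to CACGTG and 2 to CCAAT or its complement ATTGG, and the MORC2 window holds 1 match to CCAAT. Among 35116 promoter windows of this length, 7.26% hold CACGTG and 34.6% hold CCAAT on either strand. Each window is 67.7% G and C. A match describes the letters and is not a binding site.

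AC008440.3 runs towards MYADM, which encodes a membrane protein of the myeloid-associated differentiation marker family, on the same strand. AC008440.3 ends 83 bp before the GENCODE start of MYADM. The most upstream of 3 RefSeq promoter windows of MYADM (GRCh38.p14, chr19:53866121-53866420, plus strand) is shown because AC008440.3 reaches into it, and its first 20 bases, in capitals, are also the last bases of AC008440.3 by position.
MYADM: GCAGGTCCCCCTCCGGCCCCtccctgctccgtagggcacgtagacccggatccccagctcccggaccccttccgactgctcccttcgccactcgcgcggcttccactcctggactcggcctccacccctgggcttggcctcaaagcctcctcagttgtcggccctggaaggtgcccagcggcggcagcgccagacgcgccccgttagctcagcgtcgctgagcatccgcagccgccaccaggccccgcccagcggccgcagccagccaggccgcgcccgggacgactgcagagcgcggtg
TUG1 was the only member with a RefSeq window under its own symbol, so no other member's promoter is printed.

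To see whether long non-coding genes differed between SAMD4B-induced and uninduced cells, each member's TPM was summed over its transcripts and compared as log2((TPM with Dox + 1)/(TPM without Dox + 1)). None of the 7 members differed by a fold of 2 or more, in either direction. Among all 10149 genes at the same minimum, 1.05% were higher with Dox by that fold and 0.552% were lower by it, so calls were rare among all genes too. At a fold of 1.5, no member was higher, against 4.35% of all genes, and 1 member, AL392172.1, was lower, against 3.12% of all genes. Of the 7 members 4 were above 0 on the log2 scale, against 53.1% of all genes. The median log2 fold change was 0.05 over the members and 0.02 over all genes, and the median size of the difference, without its sign, was 0.28 and 0.18. Together the members held 96.9 TPM with Dox and 95.1 TPM without, and TUG1 made up 67.6% of that sum with Dox and 66.4% without. The other 6 members summed to 31.4 TPM with Dox and 31.9 TPM without.

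**Figure D1:**
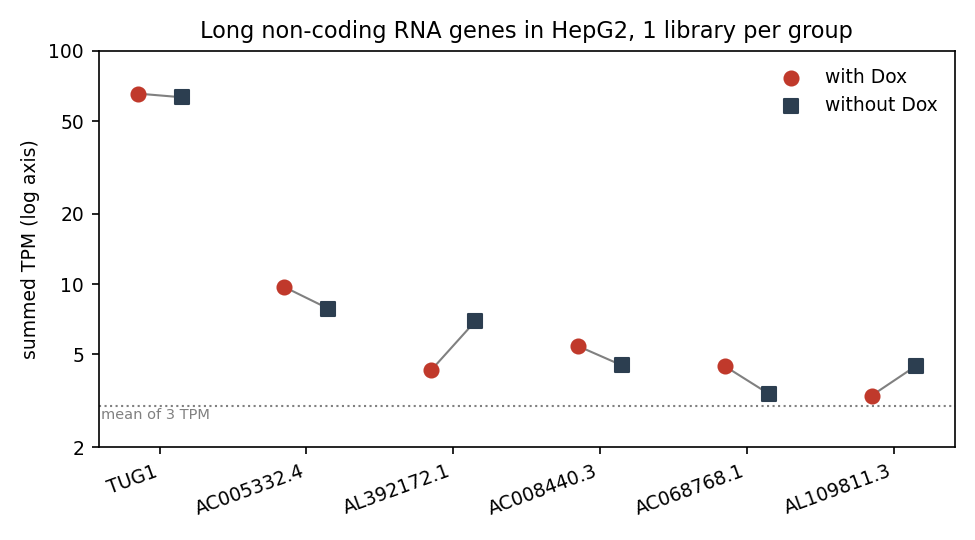
Summed TPM (log axis) of 6 long non-coding RNA genes with Dox (circles) and without Dox (squares), 1 library each, joined by a line per gene; the dotted line marks the minimum of 3 TPM. TUG1 is at 65.5 and 63.2 TPM, and AL392172.1 has the widest gap, at 4.29 TPM with Dox and 6.94 TPM without.

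TUG1 (chromosome 22, 30969245 to 30979395, plus strand, GRCh38) was the most abundant member and nearly level between the libraries. Its summed TPM was 65.5 with Dox and 63.2 without, a log2 fold change of 0.05. Counted in fragments, with about 6984 for TUG1 with Dox and 5099 without, and each divided by its library's depth, the ratio was 1.05 (95% counting interval 1.01 to 1.09). Such intervals are exact binomial ones (Clopper-Pearson), made from estimated depths, and hold no variation between cultures. Among all 8677 genes with such an estimate, the interval lay above 1 for 25.5% and below 1 for 31.0%, and among the 5 members with one it lay above 1 for 2 and below 1 for none. The head-to-head neighbour MORC2 was at 23.5 TPM with Dox and 24.2 TPM without, with a fragment ratio of 0.99 and an interval of 0.92 to 1.06.

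TUG1 was listed through 20 transcripts, of which 13 were above 0 in at least 1 library. The 2 most abundant carried 58.0% of its TPM with Dox and 53.2% without. ENST00000643071 (6154 nt), which starts 714 nt downstream of the most upstream start, was at 21.5 TPM with Dox and 17.3 TPM without. ENST00000644773, the longest at 7469 nt and with a long first exon, was at 16.6 TPM with Dox and 16.4 TPM without. These long forms share a large last exon and differ mainly in where they start and in how the first exons are joined. The next 2 in level went different ways. ENST00000519077 was at 6.83 TPM with Dox and 4.39 TPM without, and ENST00000569149, a shorter form that keeps the intron before the last exon, was at 7.65 TPM with Dox and 9.58 TPM without.

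The 6 transcripts that start within 100 nt of the most upstream TUG1 start summed to 19.3 TPM with Dox and 21.3 TPM without, or 29.4% and 33.7% of the gene. The 14 that start further downstream summed to 46.2 TPM with Dox and 41.9 TPM without. The upstream group holds 2 of the 3 TUG1 transcripts that were listed at 0 in 1 library alone. ENST00000646496 was listed at 0 with Dox and at 2.86 TPM without, and ENST00000643920 was at 0.81 TPM with Dox and listed at 0 without. Many of the TUG1 transcripts overlap one another in sequence, so the split among them rests on the quantifier's assignment of shared fragments, and no error can be put on it. The gene's sum depends less on it than a single transcript does.

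**Figure D2:**
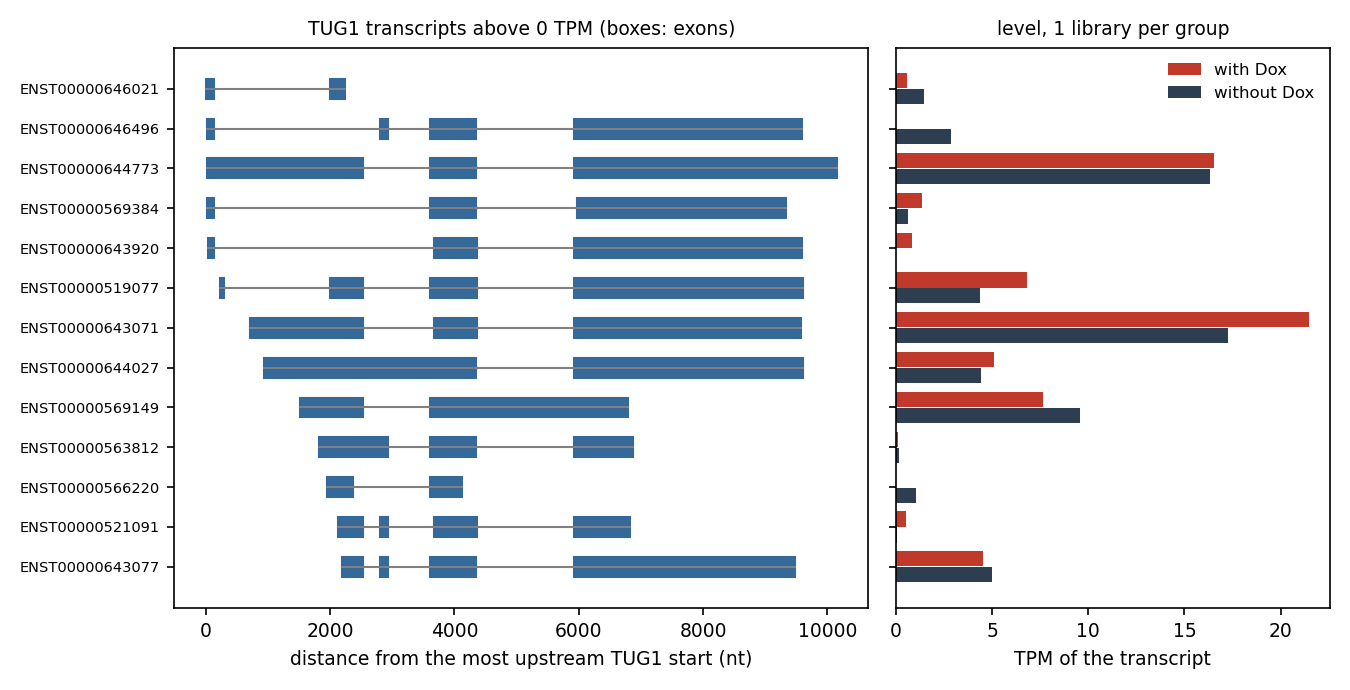
Left, exons (boxes) of the 13 TUG1 transcripts above 0, by distance in nt from the most upstream start; right, TPM of each transcript with Dox (red) and without Dox (dark), 1 library each. The longest bars, ENST00000643071 and ENST00000644773, are at 21.5 and 16.6 TPM with Dox and at 17.3 and 16.4 TPM without.

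AC005332.4 (chromosome 17, 68205489 to 68207493, plus strand) is a single exon of 2005 nt with 1 transcript in GENCODE 29, so its value is not a sum over isoforms. Whether the quantifier split its fragments with overlapping transcripts outside that release was not tested. AC005332.4 was at 9.72 TPM with Dox and 7.85 TPM without, a log2 fold change of 0.28. The fragment ratio was 1.20 with an interval of 1.00 to 1.44, from 310 fragments with Dox and 198 without. Next on the same strand in GENCODE 29 is AMZ2, a zinc metallopeptidase gene that starts 40081 bp further on and whose RefSeq span covers AC005332.4. AMZ2 was at 98.7 TPM with Dox and 95.9 TPM without, and its fragment ratio was 0.98 (interval 0.92 to 1.05). The difference between AC005332.4 and AMZ2 was not tested.

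AL392172.1 (chromosome 1, 222815022 to 222837384, plus strand) had the widest difference of the members. It was at 4.29 TPM with Dox and 6.94 TPM without, a log2 fold change of -0.59. Of its 9 transcripts in the table, 4 were above 0. Most of the gap lay in ENST00000420335, a form of 445 nt at 1.47 TPM with Dox and 3.31 TPM without, and in ENST00000444858 (362 nt), which was listed at 0 with Dox and at 0.73 TPM without. The longest form, ENST00000435378 (768 nt), was at 2.66 TPM with Dox and 2.90 TPM without, which is 23 and 20 estimated fragments. On that form alone, relative to depth, the log2 fold change was -0.19. Because 49.5% of the TPM lay on transcripts of at least 600 nt, no interval is given for the gene, and the 1.5-fold difference rests on short transcripts whose TPM is worth few fragments. DISP1, which encodes a membrane protein that releases Hedgehog ligands, starts 34887 bp further on the same strand in GENCODE 29, and its RefSeq span covers AL392172.1. DISP1 was at 0.13 TPM with Dox and 1.57 TPM without, all of the value without Dox being on ENST00000284476, which was listed at 0 with Dox.

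AC008440.3 (chromosome 19, 53864763 to 53866140, plus strand) has 3 exons and 1 transcript of 555 nt. It was at 5.43 TPM with Dox and 4.49 TPM without, a log2 fold change of 0.23. At this length no fragment interval is given. Its TPM was worth about 25 estimated fragments with Dox and 17 without, beside a depth ratio of 1.30 between the libraries. MYADM, whose promoter window printed above holds the end of AC008440.3, was at 76.7 TPM with Dox and 58.5 TPM without (log2 fold change 0.38, fragment ratio 1.28, interval 1.22 to 1.35). Both genes were thus higher in TPM with Dox, AC008440.3 on few fragments. None of the 555 nt of AC008440.3 is shared with an annotated MYADM exon in GENCODE 29. In RefSeq, the span of AC008440.3 overlaps MYADM and also MYADM-AS1, which is listed as long non-coding. Read-through between these neighbours was not tested.

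The 2 antisense members overlap exons of coding genes, and the sources used here do not say whether the libraries kept strand. Reads of a gene and of its antisense partner may then not be told apart where they overlap. Where exons are shared on the same strand, knowing the strand would not separate the reads either. AC068768.1 (chromosome 12, 123252030 to 123261483, minus strand) lies opposite C12orf65, a mitochondrial translation release factor gene now called MTRFR, and shares 513 of its 1756 exonic nt with coding exons, those of CDK2AP1 on its own strand. AC068768.1 was at 4.45 TPM with Dox and 3.39 TPM without, a log2 fold change of 0.31. Its fragment ratio was 1.42, with a wide interval of 0.87 to 2.36, from 50 fragments with Dox and 27 without. ENST00000544890 held most of the gap, at 2.84 TPM with Dox and 1.17 TPM without. ENST00000541002, the form with the most exons, was worth about 24 fragments with Dox and 18 without, close to the depth ratio of 1.30 between the libraries. CDK2AP1, a cell-cycle inhibitor and subunit of the NuRD chromatin complex, was at 114 TPM with Dox and 127 TPM without (fragment ratio 0.87, interval 0.81 to 0.93). Its main form, ENST00000618072, was at 95.4 TPM with Dox and 112 TPM without. ENST00000544658 (931 nt) went the other way, at 6.11 TPM with Dox and 1.70 TPM without. Whether CDK2AP1 forms take part in the value of AC068768.1 was not tested. C12orf65 was at 13.5 TPM with Dox and 12.3 TPM without (fragment ratio 1.07, interval 0.92 to 1.24).

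AL109811.3 (chromosome 1, 11029659 to 11030528, plus strand) lies opposite MASP2, the serine protease of the lectin pathway of complement, which is made by the liver. It was at 3.33 TPM with Dox and 4.46 TPM without, a log2 fold change of -0.33, all of it on the single-exon ENST00000607145. The fragment ratio was 0.71, with an interval of 0.43 to 1.15, from 35 fragments with Dox and 38 without. MASP2 was at 2.88 TPM with Dox and 4.39 TPM without, with a log2 fold change of -0.47 and a fragment ratio of 0.76 (interval 0.55 to 1.04). Both of these overlapping genes were thus lower in summed TPM with Dox, and both intervals hold 1. The transcripts of MASP2 did not all go that way. ENST00000480221, annotated as retaining an intron, was at 1.62 TPM with Dox and 2.25 TPM without. ENST00000400898 (coding, 726 nt) was at 0.75 TPM with Dox and 1.82 TPM without. The longest coding form, ENST00000400897 (2439 nt), was higher with Dox, at 0.51 TPM against 0.32 TPM without. TARDBP, which encodes the RNA-binding protein TDP-43, lies upstream on the strand of AL109811.3 in GENCODE 29. Its RefSeq span, however, overlaps AL109811.3. TARDBP was at 190 TPM with Dox and 197 TPM without. Whether TARDBP transcripts take part in the value of AL109811.3 was not tested. Of the 870 exonic nt of AL109811.3, 448 are shared with exons of coding genes of GENCODE 29, namely MASP2 and, on its own strand, AL109811.4. AL109811.4 was at 0.25 TPM with Dox and 0.42 TPM without. Its fragment ratio went the other way, at 2.69 with a wide interval of 0.51 to 26.5.

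**Figure D3:**
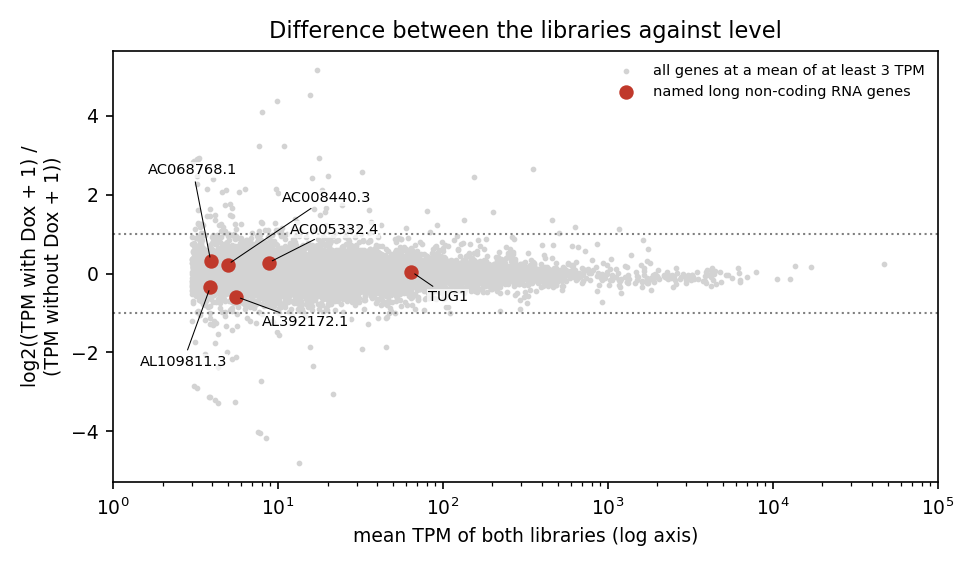
Log2 fold change (TPM plus 1, with Dox over without) against mean TPM (log axis) for all 10149 genes at a mean of at least 3 TPM (grey), with 6 long non-coding RNA genes in red; dotted lines mark a fold of 2. The red points lie between -0.59 (AL392172.1) and 0.31 (AC068768.1), inside the band of the grey points.

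By position, TUG1 was the only head-to-head member, AC068768.1 and AL109811.3 overlapped coding genes on the opposite strand and also on their own, and the other 4 overlapped no coding gene of GENCODE 29. The median log2 fold changes of the antisense pair and of the 4 others were -0.01 and 0.03, beside 0.02 for all genes. With 1 to 4 genes in a class, these medians show no order. Levels differed more than differences did. TUG1, at a mean of 64.4 TPM, stood apart from AC005332.4 at 8.79, while the members below AC005332.4 lay between 3.90 and 5.61 TPM on the length-corrected scale, and their neighbours in that order cannot be ranked without replicates.

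The genes just inside the minimum were AC068768.1 and AL109811.3, with means of 3.92 and 3.90 TPM. The 3 just outside were AC004656.1, AL163051.2 and LINC00843, with means of 2.34, 1.95 and 1.94 TPM. AC004656.1 was at 2.11 TPM with Dox and 2.56 TPM without, AL163051.2 was at 1.59 TPM with Dox and 2.32 TPM without, and LINC00843 was at 1.99 TPM with Dox and 1.89 TPM without. Of the 82 genes below the minimum, 7 had a mean of 1 to 3 TPM, 30 were above 0 with a mean under 1, and 45 were listed at 0 in both libraries. Across all 89 genes, 36 were above 0 with Dox and 37 without, and the sums were 115 TPM with Dox and 111 TPM without.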

How the data were processed

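Polyadenylated RNA of 2 HepG2 libraries was measured. The authors deposited TPM for 184844 transcripts, made with Trimmomatic, Salmon and GRCh38.p13 per the submitters' processing notes; tool versions, options, strand and annotation release: not given in the sources used here. TPM is corrected for length and sums to 1000000 per library. For this report 161838 transcripts were matched to GENCODE 29 by identifier without version, holding 93.4% of the TPM with Dox and 93.3% without, and summed per gene (Python 3.11.15, pandas 2.3.3). Transcript lengths are those of GENCODE 29, and for a few transcripts, such as ENST00000644773 and ENST00000435378, the table carries a newer version. Fragments shared with the 23006 unmatched transcripts are missed. The pseudocount was 1 TPM. The TPM worth of 1 fragment was read from single-transcript genes of at least 600 nt. After length offsets of 310 nt (Dox) and 300 nt (no Dox), 86.3% and 86.0% of values under 5.5 fragments lay within 0.1 of a whole number. For a preset unit 20% would do so by chance, but the unit was fitted to these same values. Depth is the sum of estimated fragments over matched transcripts of at least 600 nt. A transcript of 2000 nt with 1 fragment has 0.0314 TPM with Dox and 0.0398 without. Ratios with intervals were computed with scipy 1.17.1 for genes with at least 80% of TPM on transcripts of at least 600 nt. The procedure was tested on simulated data. Named genes are all members but the one noted, their neighbours, and the genes next to the minimum; the wider rule (up to 12 members at each end, 10 by level, list members) took no others. The members and lists were chosen with earlier results of these data known. Neighbours' symbols came from GENCODE 29 and RefSeq (GRCh38.p14).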

Additional observations from a re-analysis of the deposited data

How the results depend on the processing

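The count of members at least 2-fold higher or lower was 0 under each of the 11 alternatives: pseudocounts of 0.1 and 5 TPM, minimum means of 1 and 10 TPM, no minimum (44 genes above 0), centring on the protein-coding median, removal of mitochondrial transcripts, estimated fragments, and leaving out genes whose main transcript in 1 library is listed at 0 in the other (there were 0), transcripts under 300 nt, or the 2 members that share exons with coding genes. Several of these could not move the count from 0. The minimum of 10 TPM and the rules that leave out genes only remove members, and adding 5 TPM only shrinks a difference. Leaving out transcripts under 300 nt removed no TPM from the members. Without a minimum the count says little, since 30 of the 44 genes were under 1 TPM in both libraries and could not reach a fold of 2 with 1 TPM added. The median of the members was -0.060 in estimated fragments on transcripts of at least 600 nt, where AC008440.3 has no value, and lay between 0.02 and 0.07 otherwise. The share of TPM held by the members was 0.00969% with Dox and 0.00951% without as deposited, and 0.0109% and 0.0106% once mitochondrial transcripts were removed, since the total is then smaller. No member changed sign in the 27 values recomputed over the pseudocounts, the centring and the fragments. AL392172.1, at -0.59 as reported, was at -0.68 with 0.1 TPM added and at -0.61 after centring, but no longer past a fold of 1.5 with 5 TPM added (-0.36) or in fragments (-0.19). No paired analysis was possible because there is 1 library per group. Host classes gave no value, since no member holds a snoRNA or miRNA. For AC068768.1 and AL109811.3, this depth leaves counting intervals of 0.87 to 2.36 and 0.43 to 1.15, so smaller differences were not detectable.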

Other observations

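Among the long non-coding genes below 3 TPM, looked up after their values were seen, 19 had enough long-transcript signal for a fragment ratio, and its counting interval lay above 1 for 3 and below 1 for 2. Among all genes at 3 TPM or more with such a ratio, 25.5% lay above 1 and 31.0% below. These shares are not directly comparable, since lower levels give fewer fragments and wider intervals. The 19 genes also needed estimated fragments in both libraries, which the genes at 3 TPM or more did not. The genes below are therefore given as values only. TNRC6C-AS1 was at 2.19 TPM with Dox and 1.07 TPM without (fragment ratio 1.99, interval 1.40 to 2.86). It shares 1342 of its 4402 exonic nt with TMC6 on its own strand and 1438 nt with TNRC6C on the other. TMC6, a transmembrane channel-like gene, was at 37.1 TPM with Dox and 22.3 TPM without (fragment ratio 1.37, interval 1.22 to 1.53), and TNRC6C, a partner of Argonaute proteins in miRNA silencing, was at 4.90 and 4.31 TPM in the same order (fragment ratio 0.97, interval 0.86 to 1.09).

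C2orf48 starts 9963 bp downstream of RRM2, the small subunit gene of ribonucleotide reductase, on the same strand, and the RefSeq span of RRM2 reaches into it. C2orf48 was at 0.27 TPM with Dox and 0.89 TPM without, from 8 and 21 estimated fragments (ratio 0.29, interval 0.11 to 0.69). RRM2 was at 20.1 TPM with Dox and 50.2 TPM without, and no exon of C2orf48 is shared with it in GENCODE 29. ERVH48-1, a gene derived from an endogenous retrovirus on chromosome 21, was at 0.39 TPM with Dox and 0.05 TPM without, from 18 and 2 estimated fragments (ratio 6.91, interval 1.65 to 61.4). AC104162.2, a bidirectional promoter gene on chromosome 3, was at 0.24 TPM with Dox and 0.07 TPM without, from 10 fragments and 1 (ratio 7.68, interval 1.09 to 333). AC004656.1, on the X chromosome, had a ratio of 0.81 (interval 0.65 to 1.00). Whether read-through from the neighbouring coding genes takes part in these values was not tested.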
